A study of Drosophila melanogaster with 9 samples.

Results

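The exons described here are the cassette exons longer than 50 nt whose length divides by 3, taken from the deposited table of skipped exons in wing imaginal discs of Drosophila melanogaster. They made up 2435 of the 6493 rows of that table, and stand for 1799 distinct exons in 1121 genes, since an exon has a row for each pair of flanking exons. Of the other rows, 3463 hold exons over 50 nt whose length does not divide by 3 and 595 hold exons of at most 50 nt. The rule uses length only and no measured value. The distinct exons were 51 to 27690 nt long, with a median of 177 nt and quartiles at 105 and 335 nt (the longest entry is far longer than a usual exon and is given as deposited).

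The study asked through which genes Psi controls growth of the wing disc, the larval epithelium that forms the adult wing, and sequenced poly(A) RNA after RNAi. Per the labels, the control was tsGAL80;tubG4/+, with a ubiquitous tubulin-GAL4 driver and temperature-sensitive GAL80 but no hairpin, and the knockdowns were tsGAL80;tubG4/Psi RNAi and tsGAL80;tubG4/Myc RNAi, each from 1 hairpin line. The labels place all larvae in the third instar, with 2 names for the stage, the hairpins were active in the 3 days before collection, and each of the 3 replicates of a group pooled 60 wing discs. The splicing table covers Psi RNAi and control only, 3 libraries each. Its 2 groups of columns carry the numbers 1 and 2 and no genotype, so they are called the first-listed and the second-listed group, and no difference of inclusion is assigned to the knockdown. No source says that the pools came from separate crosses, and p-values then measure the spread between pools, which may be technical.

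A skipped, or cassette, exon is kept in some mRNAs of a gene and left out of others, together with the introns on both sides. When its length is a multiple of the codon length and it lies inside the coding sequence, leaving it out removes whole codons and keeps the reading frame downstream, so both forms can code for a full protein. Psi, a protein with KH domains that bind RNA, is known from flies for holding back splicing of the P-element transposase intron in somatic cells, where it works with the hnRNP protein Hrb27C and the U1 snRNP. The inclusion level used below runs from 0 to 1 and belongs to a row. It sets reads of the form that keeps the exon against reads of the splice that leaves it out between the neighbours of that row. Both are corrected for the lengths of the forms, and the level is not a share of all transcripts of the gene.

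The targeted genes were examined first. Control libraries had Psi levels of 335, 322 and 323 CPM (counts relative to the scaled total of a library), and Psi RNAi libraries of 74.7, 65.7 and 61.7 CPM, so the log2 fold change was -2.28 ± 0.08 (SE, adjusted p = 1.13e-06). In the Myc RNAi libraries Psi was at 345, 311 and 307 CPM. For Myc the control libraries had 149.5, 147 and 139 CPM, the Psi RNAi libraries 107, 118 and 108 CPM and the Myc RNAi libraries 132, 109 and 103 CPM. The log2 fold changes were -0.39 ± 0.09 and -0.34 ± 0.09, with both knockdowns below every control library. Neither passed the threshold in the reported edgeR test (adjusted p = 0.0214 and 0.0146). Over the alternative settings the adjusted p ran from 0.000858 to 0.0819 for Psi RNAi and from 0.00083 to 0.0545 for Myc RNAi, so the call depended on the setting. The study, with DESeq2, reported Myc as reduced after Psi knockdown. The libraries held 26287040 to 34401160 counted read pairs. Of 8 wing disc markers, 7 were matched, and their sums lay between 1867 and 2192 CPM in the 9 libraries. The 3 haemocyte (blood cell) markers, Hml, NimC1 and Pxn, summed to 148 to 333 CPM in the controls, 75.1 to 113 CPM in Psi RNAi and 88.1 to 182 CPM in Myc RNAi. The 5 fat body markers ran from 612 to 10430 CPM in the controls and from 243 to 6136 CPM in Psi RNAi. The 3 salivary gland and gut markers reached 1131 CPM in 1 Psi RNAi library, where the gut protease gene Jon65Aiv alone was at 1092 CPM. None of these defining markers was at 0 in any library. The part of blood, fat body or gut cells in the differences below was not tested, and in bulk tissue fewer cells of a type and less RNA per cell cannot be told apart.

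A row was tested if it had on average at least 20 reads per library and at least 10 reads in all of the rarer form, which left 902 rows, 732 exons and 500 genes. Of the 1533 rows that were not tested, 367 had too few reads, 1073 had fewer than 10 skipping reads and 93 had fewer than 10 inclusion reads. The largest of these sets thus held exons that were close to always kept in the wing disc. Over all 2435 frame-keeping rows, tested or not, a library held 1041347 to 1290017 inclusion reads and 121091 to 149225 skipping reads. Inclusion levels of the tested rows correlated across rows at 0.974 to 0.986 between libraries of one group and at 0.948 to 0.961 between groups (Pearson, a description, since rows share genes and libraries).

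The inclusion of 169 frame-keeping rows (149 exons in 121 genes) differed between the groups at an adjusted p below 0.01, by edgeR's quasi-likelihood test of the odds of inclusion. That is 18.7% of those tested, against 18% of all tested rows of the table (404 of 2249). Inclusion was higher in the second-listed group in 117 rows (12.97%, against 12.1% over the table) and higher in the first-listed group in 52 (5.76%, against 5.87%). With a difference of mean inclusion of at least 0.1 as a further condition, 94 rows were called, or 219 and 9.74% over the table. Frame-shifting exons over 50 nt gave 203 calls in 1085 tested rows, 18.7%, and exons of at most 50 nt gave 32 in 262, 12.2%. Exons that keep the frame and exons that break it were called at like rates, and no test of that difference was run. The median size of the difference was 0.0364 over tested frame-keeping rows, 0.0311 over frame-shifting rows and 0.129 over the called frame-keeping rows. Just inside the length limit, 4 of 17 tested rows of 51 nt were called, and just outside it 1 of 14 rows of 48 nt.

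**Figure D1:**
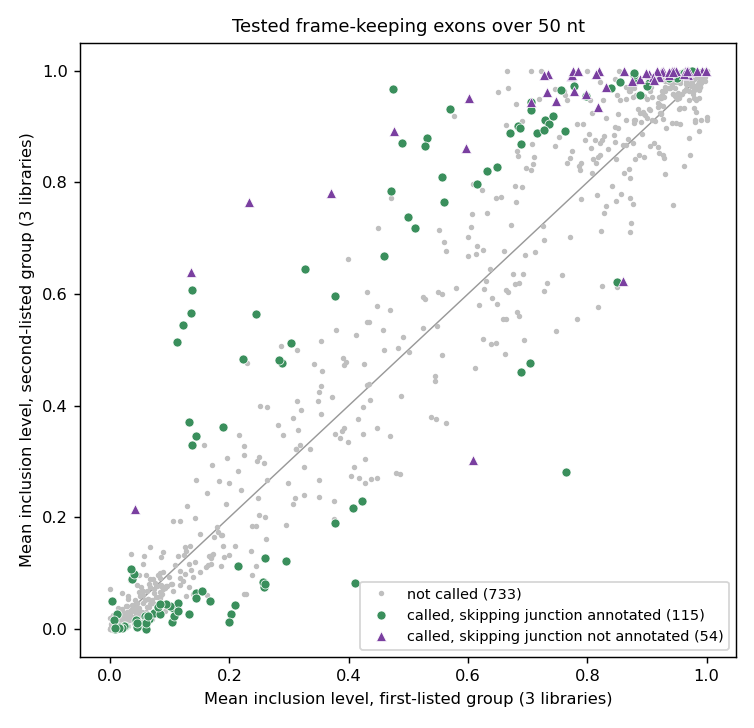
Mean inclusion level (0 to 1) of the 902 tested frame-keeping rows in the first-listed group (x axis) and the second-listed group (y axis), 3 libraries each. Grey points were not called, green circles are the 115 called rows whose skipping junction is annotated and purple triangles the 54 whose skipping junction is not. Most called rows lie above the diagonal, 117 against 52, and nearly all triangles do.

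The call counts depended on single libraries. Without the first-listed library 1 or 2, 101 and 107 frame-keeping rows were called, and without the second-listed library 1 or 2, 80 and 108. In each of the 6 settings with a library left out, 71 of the 169 rows kept their call, in 56 genes, and 47 of these were also called by DESeq2 and by limma.

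The exons of smallest p with a difference of at least 0.1 came from 12 genes of varied roles, and in 9 of them inclusion was higher in the second-listed group. Each of these 12 had groups that did not overlap and was called with every library left out in turn. Both traits describe exons chosen by small p in the same libraries and are no further support. A pair encode proteins of vesicle traffic. The lap gene codes for the AP180 adaptor, which recruits clathrin to synaptic and endocytic membranes. Its 90 nt coding exon (3R:7197570-7197659, plus strand), kept in 6 of 9 annotated transcripts, had inclusion levels of 0.572, 0.529 and 0.606 in the first-listed libraries and 0.933, 0.934 and 0.926 in the second-listed ones. The log2 odds of inclusion differed by 3.34 ± 0.31 (SE, adjusted p = 2.18e-06). ArfGAP1 codes for a protein that switches off the GTPase Arf1 at the Golgi. Its 60 nt exon (3L:12415945-12416004) was at 0.793, 0.812 and 0.728 in the first-listed group and at 0.969, 0.979 and 0.972 in the second-listed group. The log2 odds difference in ArfGAP1 was 3.33 ± 0.41 (adjusted p = 3.4e-05), and in both genes skipping was the rarer form and more frequent in the first-listed group.

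Of the 12, 3 encode members of kinase families. The rl gene codes for the ERK-type MAP kinase that acts below receptor tyrosine kinases. Its 111 nt exon (2R:1080331-1080441) was at 0.765, 0.702 and 0.851 in the first-listed libraries and at 0.992, 0.986 and 0.992 in the second-listed ones (log2 odds difference 4.77 ± 0.46, adjusted p = 3.01e-06). The splice that joins the neighbours of this row without the exon is in none of the 7 annotated transcripts. The exon itself is in 6 of these 7. Between the groups, 204 skipping reads stood against 10. Gprk1, a kinase that acts on G protein-coupled receptors, had a 207 nt coding exon (2R:4336377-4336583) at 0.815, 0.783 and 0.843 in the first-listed group and 0.988, 1 and 0.994 in the second-listed group. Its difference was 5.12 ± 0.54 (adjusted p = 8.26e-06). Stlk, a member of the Ste20-like kinase family, had the largest difference of mean inclusion among the called exons, taken once per gene. Its 429 nt coding exon (2R:4560361-4560789) was at 0.191, 0.201 and 0.309 in the first-listed group and at 0.839, 0.691 and 0.766 in the second-listed group. The means were 0.233 and 0.765 (log2 odds difference 3.44 ± 0.38, adjusted p = 1.24e-05). The skipping junctions of Gprk1 and Stlk are likewise not annotated.

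Another 3 build or anchor the cytoskeleton. The spectraplakin gene shot codes for a giant linker of actin and microtubules. Its 72 nt exon (2R:13870840-13870911), present in 20 of 22 annotated transcripts, was at 0.528, 0.562 and 0.496 in the first-listed group and at 0.86, 0.892 and 0.843 in the second-listed group (difference 2.52 ± 0.29, adjusted p = 1.7e-05). The 156 nt exon of stai (2L:6122698-6122853), the fly stathmin, which binds tubulin, was at 0.666, 0.682 and 0.664 against 0.893, 0.895 and 0.877 (1.97 ± 0.26, adjusted p = 5.19e-05). Replicates of stai lay within 0.02 of each other in both groups. The third, cora, codes for a band 4.1 protein of septate junctions and went the other way. Its 114 nt exon (2R:19237328-19237441), found in 1 of 6 annotated transcripts, was at 0.246, 0.307 and 0.217 in the first-listed group and at 0.0727, 0.0846 and 0.0931 in the second-listed group (1.92 ± 0.26, adjusted p = 8.63e-05).

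The remaining 4 concern adhesion, translation and RNA. The 72 nt exon of mfas (3R:11992072-11992143), whose product carries the fasciclin domains of a family of adhesion proteins, was at 0.218, 0.193 and 0.199 in the first-listed group and at 0.0248, 0.0368 and 0.0209 in the second-listed group (3.15 ± 0.36, adjusted p = 1.87e-05). With 2 other pairs of neighbours the same exon of mfas had means of 0.411 and 0.0816 (adjusted p = 4.94e-05) and, from 35.3 reads per library, of 0.764 and 0.282 (adjusted p = 0.00194), so its level depended on the row while the direction was the same in all 3. For tra2, which codes for an RNA-binding splicing factor of the sex determination pathway, a 192 nt exon (2R:14603734-14603925) that carries a start or stop codon was at 0.266, 0.265 and 0.244 against 0.0899, 0.0728 and 0.0649 (2.09 ± 0.29, adjusted p = 8.77e-05). For eEF1delta, a subunit of the nucleotide exchange factor of translation elongation, an 81 nt exon (2L:10233481-10233561) with 5236 reads per library, the most of the 12, was at 0.455, 0.457 and 0.498 against 0.798, 0.762 and 0.794 (2.04 ± 0.24, adjusted p = 2.4e-05). Uhg1 makes no protein and carries small nucleolar RNAs in its introns, so keeping the frame has no meaning for it. A 105 nt exon of Uhg1 (2R:17700081-17700185) was at 0.765, 0.746 and 0.815 in the first-listed group, with 103 skipping reads. In the second-listed group it was at 1 in each library, with 0 skipping reads of 1277, which allows a skipping level of up to 0.482% after the correction for length (3 reads over the group, counting error only, adjusted p = 3.01e-06). With 2 other pairs of neighbours the same exon of Uhg1 had skipping reads in 1 second-listed library, at inclusion levels of 0.975 and 0.983.

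**Figure D2:**
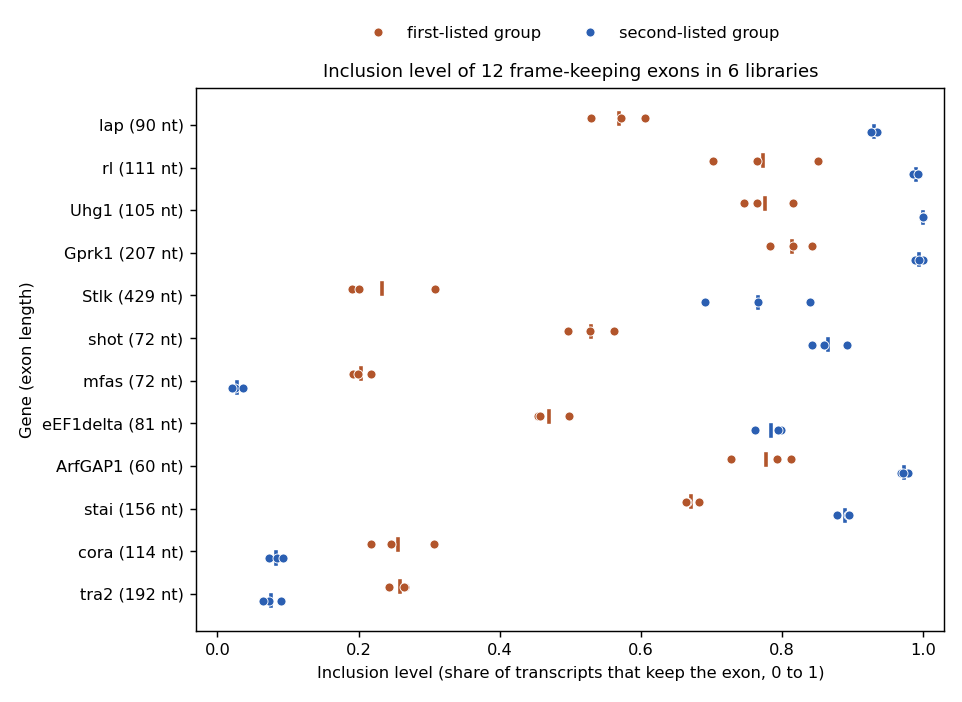
Inclusion level (x axis, 0 to 1) of the 12 called frame-keeping exons of smallest p with a difference of at least 0.1, 1 exon per gene. Each dot is a library and each tick the mean of 3, first-listed group in brown and second-listed group in blue. The groups do not overlap in any of the 12, which were chosen by p and size in these same libraries. The 3 with higher inclusion in the first-listed group are mfas, cora and tra2.

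The next 8 genes by size of the difference, each taken by its called row with most reads, added exons outside the coding sequence. Rows with fewer reads had differences of 0.41 in unc-13, 0.382 in Mp and 0.347 in trol, larger than the last 3 of the 8. In CG5618 a 330 nt exon in the 5′ UTR (3L:20354800-20355129) was at 0.46, 0.456 and 0.505 in the first-listed group and at 1, 0.9 and 1 in the second-listed group, from only 58.2 reads per library (adjusted p = 0.000625). Dyrk2, a kinase of the DYRK family, had a 78 nt 5′ UTR exon (2L:14229459-14229536) at 0.156, 0.111 and 0.144 against 0.416, 0.679 and 0.727 (adjusted p = 0.000198). In Dyrk2 the exon went from a minor to a main form in 2 of the 3 second-listed libraries. That rests on few reads, 91 over the whole second-listed group against 308 in the first-listed group. Parp1, which adds poly(ADP-ribose) to chromatin proteins, had a 570 nt coding exon (3R:3468909-3469478) at 0.422, 0.407 and 0.6 against 0.852, 0.906 and 0.92 (adjusted p = 9.65e-05). The single annotated transcript of Parp1 keeps the exon, which lies between introns of 60150 nt in all. The 267 nt exon of uex (2R:3918151-3918417), a membrane protein of a family tied to magnesium transport, spread widely in the first-listed group, at 0.606, 0.414 and 0.786, below the 0.955, 0.966 and 0.933 of the second-listed group (adjusted p = 0.000259). In CG40178 a 117 nt 5′ UTR exon was at 0.199, 0.244 and 0.29 against 0.488, 0.565 and 0.638 (adjusted p = 0.000793), and in CG31388 a 90 nt exon with a start or stop codon was at 0.278, 0.354 and 0.349 against 0.621, 0.677 and 0.639 (adjusted p = 0.00131). The calls of uex, CG40178 and CG31388 were lost with limma (highest adjusted p over the alternatives 0.0119, 0.013 and 0.0111). The other 2 genes of the 8, ewg and tutl, are described with the genes that hold several called exons or forms of an exon.

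Host genes were described with 10 lists of genes by role. Over all tested rows the median size of the difference was 0.0340 and 18% of rows were called. The list of RNA binding and splicing genes had 44 tested rows, of which 8 were called as higher and 4 as lower in the second-listed group (27.3%), with a median size of 0.0448. Among them was Hrb27C, the hnRNP partner of Psi on the P-element. Its 96 nt 5′ UTR exon (2L:6922731-6922826), read 4328 times per library, was at 0.689, 0.687 and 0.772 in the first-listed group and at 0.889, 0.887 and 0.891 in the second-listed group (1.65 ± 0.26, adjusted p = 0.000255). The call of Hrb27C was lost with limma (adjusted p up to 0.0132 over the alternatives). The 132 nt coding exon of Dbp80, a DEAD-box RNA helicase, was at 0.931, 0.962 and 0.944 with 30 skipping reads in the first-listed group. In the second-listed group Dbp80 had 0 skipping reads of 2093, which allows a skipping level of up to 0.333% after the correction for length (adjusted p = 0.000158). The polypyrimidine tract-binding protein gene heph had a 543 nt exon that was scarce in both groups, at 0.0128, 0.0196 and 0.0107 against 0.00314, 0.00324 and 0.00335 (adjusted p = 0.000243). A 252 nt coding exon of mbl, the muscleblind splicing factor, singled out after its values were seen, rose from 0.262, 0.188 and 0.218 in the first-listed group to 0.453, 0.47 and 0.527 in the second-listed group (adjusted p = 0.000513).

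Cell adhesion and surface receptor genes had 57 tested rows, with 7 called as higher and 5 as lower in the second-listed group (21.1%, median size 0.0312). Besides cora and tutl they included sas, a cell surface receptor, whose 1035 nt exon was at 0.111, 0.128 and 0.103 against 0.0413, 0.0437 and 0.0551 (adjusted p = 0.000513), and ed, an immunoglobulin-type adhesion molecule, whose 369 nt exon was at 0.98, 0.956 and 0.976 against 0.998, 1 and 0.995 (adjusted p = 0.00224). The 72 nt exon of sli, the Slit guidance ligand, was at 0.585, 0.591 and 0.668 against 0.814, 0.798 and 0.776 (adjusted p = 0.00243). Calls of sas, ed and sli were each lost under some alternative (highest adjusted p = 0.0175, 0.0199 and 0.0269).

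Actin and myosin genes had 43 tested rows, 4 called as higher and 3 as lower in the second-listed group (16.3%, median 0.0233). An exon of 51 nt, just over the length limit, in beta-Spec (X:17668107-17668157), the spectrin of the membrane skeleton, was at 0.3, 0.314 and 0.27 in the first-listed group and at 0.124, 0.123 and 0.118 in the second-listed group (1.59 ± 0.24, adjusted p = 0.000187). It was called with each library left out. The bif exon, from an actin-binding protein, and the hts exon, from the fly adducin, were nearly always kept in both groups, with means of 0.976 and 0.964 in the first-listed group and of 0.999 and 0.997 in the second-listed group (adjusted p = 0.00123 and 0.00549), and the call of hts was kept in 2 of 6 settings with a library left out. Microtubule and motor genes had 28 tested rows and 3 calls (2 higher and 1 lower in the second-listed group, 10.7%, median 0.0520), which were the stai exon and 2 exons of shot, a gene that stands in both cytoskeleton lists.

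Kinase and phosphatase genes had 49 tested rows, with 4 called as higher and 3 as lower in the second-listed group (14.3%, median 0.0534). The list holds none of rl, Gprk1, Stlk and Dyrk2, whose calls are given above, and its 7 called rows are in CaMKII, nmo, sgg and Lar. The exons of CaMKII, the calmodulin-dependent kinase (57 nt, means 0.459 and 0.667, adjusted p = 0.00774), of nmo, the Nemo-like kinase (171 nt 5′ UTR, 0.797 and 0.955, adjusted p = 0.00784), and of sgg, the GSK3 kinase of the Wnt pathway (237 nt 5′ UTR, 0.0585 and 0.0224, adjusted p = 0.00856), kept their call in 0, 2 and 1 of the 6 settings with a library left out. Developmental signalling genes had 25 tested rows and 5 calls (2 higher, 3 lower, 20%, median 0.0455), all in rl and sgg. Small GTPases and their regulators had 29 tested rows and 4 calls, each higher in the second-listed group (13.8%, median 0.0209). They included ArfGAP1 and the Rac activator mbc (means 0.0342 and 0.107, adjusted p = 0.00662), and of the 4 only ArfGAP1 kept its call with every library left out.

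Transcription factor and chromatin genes had 52 tested rows, with 5 called as higher and 1 as lower in the second-listed group (11.5%, median 0.0386). The 57 nt exon of gro, the Groucho corepressor, was at 0.914, 0.9 and 0.897 against 0.975, 0.977 and 0.98 (2.18 ± 0.32, adjusted p = 0.000158). The 1599 nt exon of br, the ecdysone-induced Broad factor, was at 0.642, 0.656 and 0.769 against 0.841, 0.868 and 0.894 (adjusted p = 0.00242), and that of Chro, a protein of interband chromatin and the spindle, had means of 0.0931 and 0.0438 (adjusted p = 0.0097). With a library left out, br kept its call in 2 of 6 settings and Chro in 0. Membrane traffic genes had 17 tested rows and 4 calls, all higher in the second-listed group (23.5%, median 0.0427), in lap, in the F-BAR protein gene Cip4 (51 nt, means 0.936 and 0.997, adjusted p = 0.000286) and in ema, which acts in endosome maturation (0.879 and 0.992, adjusted p = 0.00863, kept in 1 of 6 settings with a library left out). Channels and transporters had 20 tested rows and 1 call (5%, median 0.0260), a 69 nt exon of the plasma membrane calcium pump gene PMCA with means of 0.303 and 0.512 (adjusted p = 0.00524, kept in 1 of 6 such settings).

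The called exons were spread over the parts of a transcript. Of 578 tested rows inside the coding sequence 107 were called (18.5%), of 122 in the 5′ UTR 23 (18.9%), of 149 with a start or stop codon 26 (17.4%), and of 11 in non-coding transcripts 6, of which 5 were in Uhg1. By length the share ran from 17.7% at 51 to 99 nt and 22.6% at 100 to 150 nt to 13.8% over 600 nt, with no steady trend. By mean inclusion, all 48 called rows with a mean over 0.9 were higher in the second-listed group, as were 45 of 50 between 0.5 and 0.9, 18 of 36 between 0.1 and 0.5 and 6 of 35 up to 0.1. Among called exons, those usually kept were skipped more in the first-listed group, and most of those usually left out, at a mean of up to 0.1, were included more in that group. Such rows pass the filter through reads of the rarer form summed over both groups, so a row could pass through 1 group alone. The bins also use the compared values, and the split is a description of called rows only.

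The direction differed with the annotation of the skipping junction, the splice that joins both neighbours without the exon. Where at least 1 annotated transcript has that junction, 115 of 680 tested frame-keeping rows were called (16.9%), 65 higher in the second-listed group and 50 higher in the first-listed group. Where no annotated transcript has it, 54 of 222 were called (24.3%), in 40 genes. Of these rows, 52 were higher in the second-listed group and 2, in tutl and hdly, higher in the first-listed group. The splicing table thus held more of such unannotated skipping in the first-listed group in 52 of 54 called rows. Rows enter the test through reads of the rarer form summed over all 6 libraries, so a row whose skipping reads came from 1 group could pass through that group alone. The split was the same kind in frame-shifting exons, 94 against 8 of 102 calls, and is not particular to the frame-keeping class. Among the 71 rows called with every library left out, 27 had no annotated skipping junction and 25 of these were higher in the second-listed group.

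Position in the genome was counted after values were seen, since rl, Gprk1, Stlk, Parp1, uex and Dbp80 lie near centromeres in genes with long introns. Within 5 Mb of the centromere end of the assembled arms, 27 of 91 tested frame-keeping rows in 18 genes were called (29.7%), 21 higher in the second-listed group and 6 higher in the first-listed group, a count that includes those 6 genes. At the same positions 29 of 138 frame-shifting rows were called (21.01%) and 0 of 22 rows of at most 50 nt. On the rest of the large arms 128 of 745 were called (17.2%), 82 and 46. On chromosome 4, the small and largely heterochromatic chromosome, 14 of 66 were called (21.2%), all 14 higher in the second-listed group. These 14 rows lie in only 7 genes, and rows of a gene are not independent. Rows near the centromere end whose skipping junction is not annotated gave 15 calls of 35 tested (42.9%), in 11 genes, again all higher in the second-listed group. Those with an annotated junction gave 12 of 56, in 9 genes, with 6 in each direction. Frame-shifting exons of chromosome 4 were called in 40 of 93 rows (43.0%), 36 of them higher in the second-listed group. On chromosome 4, 2 exons of unc-13, which primes synaptic vesicles, were at 0.335, 0.332 and 0.445 against 0.872, 0.815 and 0.655 (222 nt) and at 0.915, 0.908 and 0.952 against 0.993, 1 and 1 (132 nt). The 624 nt exon of Ephrin, a ligand of Eph receptors on the same chromosome, was at 0.613, 0.738 and 0.85 against 0.982, 1 and 1 (adjusted p = 0.000294). The groups of all 3 exons, which were taken from the called ones, stood apart.

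**Figure D3:**
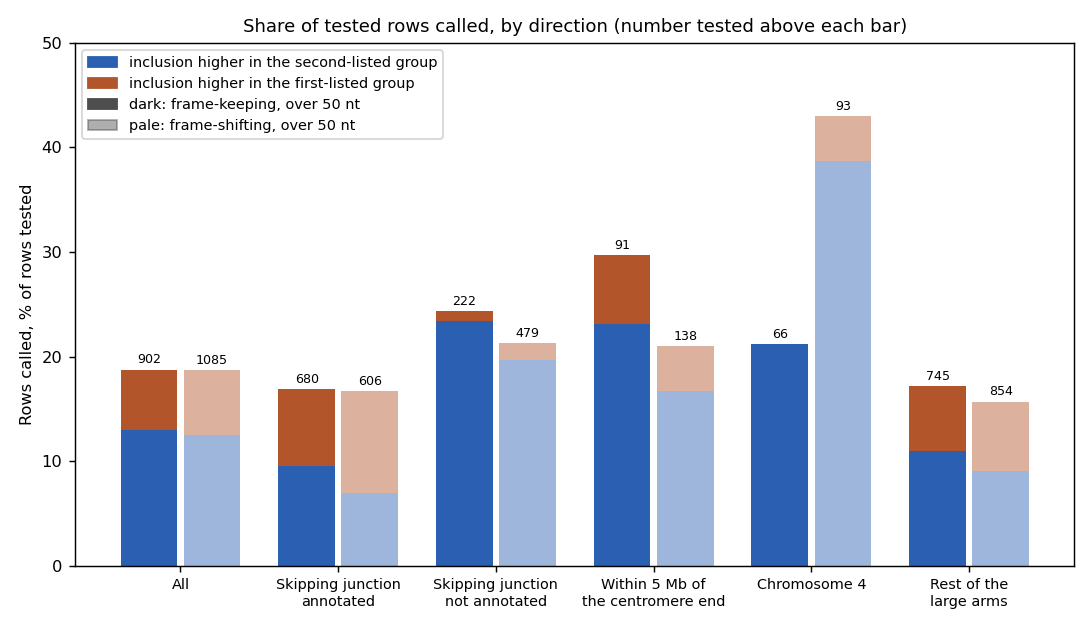
Rows called at an adjusted p below 0.01 as a percentage of rows tested (y axis), for frame-keeping (dark) and frame-shifting (pale) exons over 50 nt, in all and split by annotation of the skipping junction and by position. Blue is inclusion higher in the second-listed group and brown higher in the first-listed group, and the number above each bar is the number tested. Where the skipping junction is not annotated the bars are almost wholly blue in both classes.

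Of the 121 genes with a called exon, 97 had 1 and 24 had more, and 6 genes had called rows in both directions. Overlapping forms of an exon count here as separate exons. With overlapping forms merged, the 149 called exons came to 136, so fewer genes held several separate ones. In DIP1, singled out after its values were seen, this held for the same 5′ UTR exon of 945 nt (X:21628848-21629792). With 1 pair of neighbours its means were 0.378 in the first-listed and 0.597 in the second-listed group (adjusted p = 0.00227), and with another 0.689 and 0.459 (adjusted p = 0.00568). The direction of a row can thus depend on its neighbours. In tutl, an immunoglobulin superfamily protein of neurons and axons, 2 coding exons of 84 nt each moved in opposite directions. The upstream one (2L:4308776-4308859) was at 0.625, 0.553 and 0.647 in the first-listed group and at 0.33, 0.362 and 0.217 in the second-listed group. The downstream one (2L:4312028-4312111) was at 0.136, 0.11 and 0.15 and then at 0.407, 0.294 and 0.412. The exons of tutl differed by 1.86 ± 0.35 and 1.95 ± 0.34 in log2 odds (adjusted p = 0.00108 and 0.000591), and in each the groups stood apart. The call of the upstream one was lost with limma (highest adjusted p over the alternatives 0.019). In bbc, an enzyme of phospholipid synthesis, 2 exons of 132 nt did the same at weaker p. One was at 0.0803, 0.0627 and 0.0469 against 0.0206, 0.0248 and 0.0247 (adjusted p = 0.00694), and the other at 0.749, 0.671 and 0.763 against 0.888, 0.944 and 0.85 (adjusted p = 0.00883), with the calls kept in 1 and 2 of 6 settings with a library left out. Both genes were picked for the equal lengths of their exons, with the values already known. A pair of exons of shot also differed in direction, the 72 nt exon above and one of 84 nt at 0.89, 0.802 and 0.856 against 0.603, 0.612 and 0.647, whose call was lost with each library left out.

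In Nipped-B, which loads cohesin on chromosomes, 5 rows of 3 coding exons were called and all 5 were higher in the second-listed group, none with an annotated skipping junction. The 675 nt exon of Nipped-B was at 0.859, 0.709 and 0.675 against 0.967, 0.951 and 0.917 (adjusted p = 0.00134). In Crk, an SH2 and SH3 adaptor, exons of 156 and 129 nt rose together, from means of 0.511 and 0.742 in the first-listed group to 0.719 and 0.919 in the second-listed group (adjusted p = 0.00178 and 0.000119).

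The transcription factor gene ewg, a relative of human NRF1 that the study examined, showed how far a level depends on the flanking exons of a row. The 5 tested rows of ewg hold 3 overlapping forms of 1 exon, of 462, 426 and 327 nt, which share their upstream end in the direction of transcription (X:272422-272883, minus strand, for the longest). With 1 pair of neighbours the 462 nt form was at 0.103, 0.123 and 0.138 in the first-listed group and at 0.528, 0.443 and 0.66 in the second-listed group (2.96 ± 0.47, adjusted p = 0.000255), and the other forms gave means of 0.113 and 0.514, and of 0.135 and 0.565. With the other pair of neighbours the 462 nt form was at 0.0753, 0.112 and 0.154 against 0.141, 0.134 and 0.114 (adjusted p = 0.619), and the 327 nt form had means of 0.123 and 0.132 (adjusted p = 0.787). These rows share their exon-body reads and are not independent, and the 3 called ones rest on about 50 reads per library (46.8 to 52.2).

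**Figure D4:**
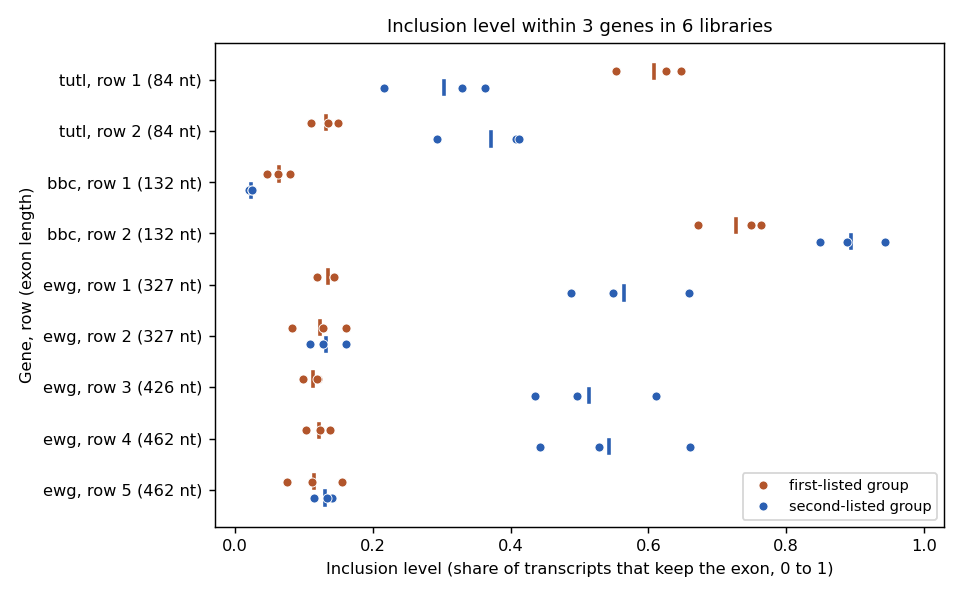
Inclusion level (x axis, 0 to 1) of called rows of tutl and bbc and of all 5 tested rows of ewg, in each library. Dots are libraries and ticks the means of 3, first-listed group in brown and second-listed group in blue. The 2 exons of tutl and the 2 of bbc differ in opposite directions, and the rows of ewg differ between the groups with 1 pair of neighbours and overlap with the other.

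Total levels of the host genes were compared by genotype, since the gene counts carry labels. After Psi RNAi, 16 of 1108 tested host genes of frame-keeping exons were higher than in the control (1.44%, against 1.8% of all 9235 genes tested) and 53 were lower (4.78%, against 2.27%). Among the 121 hosts of called exons, 3 were higher and 9 lower (2.48% and 7.44%). The total of 69 fell to between 30 and 37 without any 1 of the 3 control libraries or of Psi RNAi libraries 1 and 2, and DESeq2 called 153. Most hosts of called exons kept their level within these limits: 112 of 121 had a log2 fold change under 0.5 in size, and the median size was 0.1, against 0.126 over all genes tested. Control levels of lap were 142, 151.5 and 145 CPM against 145, 154.5 and 150.5 CPM after Psi RNAi, and those of Stlk 58.3, 55.6 and 43.6 CPM against 53.8, 43.7 and 46.9 CPM. Neither passed the test (adjusted p = 0.69 and 0.699), and the groups overlapped in both.

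The 6 hosts of smallest p included ewg, for which control libraries had 148, 142 and 143 CPM and Psi RNAi libraries 60.4, 64 and 74.3 CPM (log2 fold change -1.12 ± 0.08, adjusted p = 3.94e-05). In Myc RNAi ewg was at 110, 99.1 and 111 CPM (log2 fold change -0.44 ± 0.08, adjusted p = 0.00188). Dbp80 fell from 139, 142 and 134 CPM to 83.7, 87.7 and 77.4 CPM in Psi RNAi (-0.74 ± 0.07, adjusted p = 0.000394). MFS17, of the major facilitator transporters, fell from 53.6, 57.7 and 52.9 CPM to 28.7, 26.8 and 23.8 CPM (-1.05 ± 0.10, adjusted p = 0.000492), and CG42724 by 0.59 ± 0.06 on the log2 scale (adjusted p = 0.000654). All 4 fell with no overlap between the groups. CG17549 rose from 53.4, 53 and 48.7 CPM to 88.5, 82.2 and 77.8 CPM (0.68 ± 0.06, adjusted p = 0.000352), and TTLL4A, of the tubulin tyrosine ligase-like family, by 0.44 ± 0.05 (adjusted p = 0.000513). Parp1, which is not among these 6, had control levels of 138, 135 and 127 CPM and levels of 75.4, 82.7 and 77.4 CPM after Psi RNAi (adjusted p = 0.00237).

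After Myc RNAi, 163 host genes were higher than in the control (14.7%, against 7.6% of all genes) and 90 were lower (8.12%, against 11.4%). The 121 hosts of called exons gave 17 higher and 12 lower. Both contrasts share the 3 control libraries. No splicing table of Myc RNAi was analysed here, so inclusion levels have no value in that group.

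**Figure D5:**
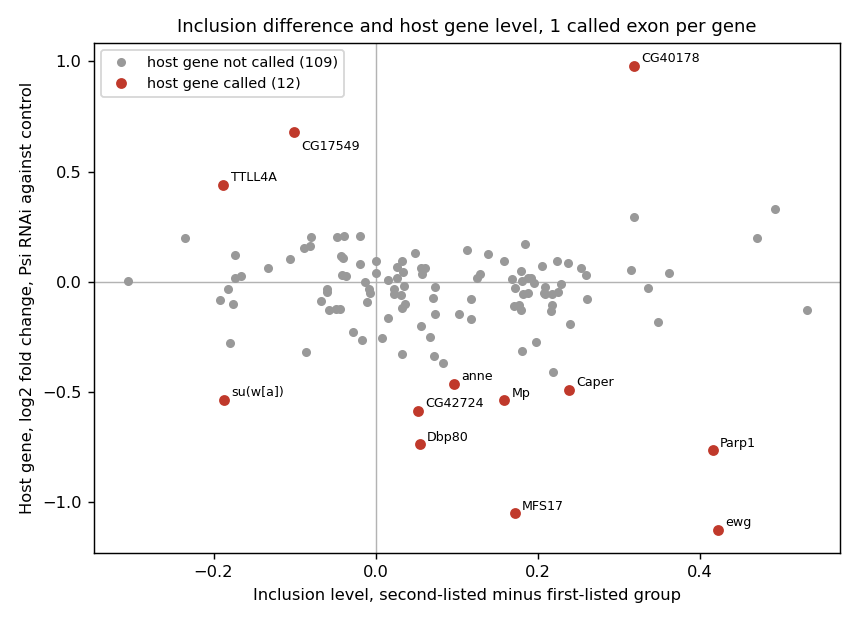
Log2 fold change of the host gene in Psi RNAi against control (y axis) and difference of mean inclusion, second-listed minus first-listed group (x axis), for 1 called frame-keeping exon in each of 121 genes. Red points are the 12 host genes whose level was called at an adjusted p below 0.01, and grey points the other 109. Most grey points lie within 0.5 of 0 on the y axis, at differences of inclusion up to 0.532 in size.

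Among exons that were not called, the 4 with most reads and an adjusted p above 0.5 had inclusion levels of at least 0.989 in every library, in the ribosomal protein gene RpL10Ab, a long non-coding RNA (lncRNA:CR42862), heph and the oligosaccharyltransferase subunit gene Stt3A. Of the other genes the study examined, B52, an SR splicing protein, had 1 frame-keeping row with 5 skipping reads of 34743 over the 6 libraries, and tok, a metalloprotease of TGF-beta signalling, 1 row with 2 skipping reads of 2844. All of these skipping reads were in the first-listed group, and 0 in the second-listed group allows a skipping level of up to 0.0415% for B52 and 1.68% for tok. Neither row reached the 10 reads of the rarer form that the test asked for, with skipping close to 0 in both groups. Psi, Myc and stg had no row in the table. SF1 and Saf-B had 1 row each and no frame-keeping exon, and B52 had 2 rows, of which 1 was frame-keeping. The study listed SF1, Saf-B and B52 as splicing regulators among its differentially spliced and altered genes, over all event types. Their rows outside the frame-keeping class and the other event types were not examined here.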

How the data were processed

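The authors deposited gene counts, whole read pairs per gene and library without normalization. Per the submitters' processing notes the tools were HTSeq 0.6.1, TopHat2 2.1.1 and FastQC 0.11.6, and the poly(A) libraries kept strand. Lines of the count files that name no gene were left out (pairs in no gene were 1.29% to 1.90%). The deposited skipped exon table came from rMATS 4.0.2 on FlyBase release 6.10 and holds, for each row, inclusion and skipping read counts (junction and exon-body reads), inclusion levels of 6 libraries and the lengths of both forms. The authors' p-values, FDR values, inclusion differences and log2 fold changes were not used, and neither were 42 other columns of values per library. The members, lists and naming rule were chosen with earlier results of these data known.

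In 7459 of 12986 sets of 3 read counts the separating commas were lost. The digits were split again so that the counts gave the deposited inclusion levels within 0.00051. In 2599 sets several splits matched and the most even was taken, and where 1 split matched (4859 sets) it was the most even. One row could not be read, and it holds no frame-keeping exon. Inclusion and skipping reads were fitted over 2249 rows with edgeR 4.0.16 in R 4.3.3 (a term per library, an inclusion term per group, robust quasi-likelihood test, Benjamini-Hochberg adjustment, common biological coefficient of variation 15.7%). Gene counts were tested with edgeR over all 9 libraries (TMM, filterByExpr), called at an adjusted p below 0.01. Alternatives used limma 3.58.1 and DESeq2 1.42.0. Both fits were tested on simulated data.

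Exons were matched to a Release 6 annotation newer than that of the authors, so an unannotated junction is one absent from the newer annotation. Of 2106 genes in the table, 2056 took their symbol from a reference table and 50 from the authors' table. Named exons are up to 12 called members of smallest p with a difference of at least 0.1, 8 more of largest difference, up to 3 per list, those in genes the study examined and 4 uncalled ones with most reads, with 1 row per gene; others are said to be chosen after their values were seen. Some named exons are not reported here. Control and Myc RNAi libraries of one number deviated together (correlations across genes of 0.309, 0.232 and 0.442), which is known from the data alone. Between control and Psi RNAi these were 0.304, 0.0901 and 0.212. In both comparisons each control library correlated best with the library of its own number. The reported gene tests took no libraries as paired, and a fit with a replicate block is given as an alternative. Control count files are named after a white-eyed strain, although the labels give the driver without a hairpin, and the labels were followed. The sources differ on larval stage and second temperature.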

Additional observations from a re-analysis of the deposited data

How the results depend on the processing

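Of 902 tested frame-keeping rows, limma called 68 (184 over the whole table), against 169 (404). The further condition of a difference of at least 0.1 left 94 (219), and an adjusted p below 0.05 gave 289 (718). DESeq2, a pseudocount of 2 in limma, no filter, a mean of at least 50 reads and 1 row per exon gave 119 to 157, within 1.5 times of the reported count. Leaving out 1 library gave 80 to 163 (190 to 379 over the table). Under every setting with a fit, 68.5% to 80.9% of called frame-keeping rows were higher in the second-listed group. Of 46 named exons fitted, 19 lost their call with limma and 11 with DESeq2. Exons that were not called changed sign: ewg with its other neighbours (log2 odds difference, second minus first, of -0.0201 without the first-listed library 1, and up to 0.55 without the first-listed library 3), lncRNA:CR42862 (-0.24 with limma), heph (0.00385 with a pseudocount of 2, and 0.12, 0.27 and 0.22 without the first-listed library 1, 2 or the second-listed library 2, and down to -1.05 without the first-listed library 3) and Stt3A (0.03, 0.0159 and 0.28 without the first-listed library 1, 3 or the second-listed library 2, and down to -1.07 without the first-listed library 2). The cause was not tested. No paired analysis was possible for the splicing table because its columns carry no sample numbers. Of the host genes, 69 were called after Psi RNAi and 82 with the replicate block, 153 with DESeq2 and 30 to 60 with a library left out. After Myc RNAi 253 were called, 275 with the replicate block and 163 to 219 with a library left out. The block changed no other count by over 1.5 times. Psi in Myc RNAi went from -0.03 to 0.00501 on the log2 scale without Myc RNAi replicate 3, and to -0.0822 without Myc RNAi replicate 1. Depth limits the 367 frame-keeping rows with under 20 reads per library.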
